A study of Mus musculus with 3 samples.

Results

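The cells described here are those that held at least 1 UMI (unique molecular identifier, 1 counted transcript) of Igfbpl1 and at least 1 UMI of Cxcr4, with 0 UMIs of Nos1 and 0 of Neurod6. They were chosen by these measured values among cells with over 700 genes and under 10% mitochondrial UMIs, so the levels of these 4 genes are a description of the choice and not a finding. There were 921 such cells among 9433 cells that passed both filters: 818 of 3952 at embryonic day 16.5 (E16.5), 102 of 2501 at postnatal day 1 (P1) and 1 of 2980 at postnatal day 5 (P5). They were compared, within each library, with other cells that held a UMI of Lhx6, a transcription factor of inhibitory neurons from the medial ganglionic eminence (MGE), and 0 UMIs of Igfbpl1, Cxcr4, Nos1 and Neurod6. These comparison cells numbered 1132, 947 and 1802 in the same order. Every cell came from the neocortex of SstCre/+;RCE mice, which carry Cre recombinase at the somatostatin gene and a Cre-dependent GFP reporter, and was sorted as GFP-positive and DAPI-negative. The label therefore marks cells that have expressed Sst at any earlier time, and each of the 3 libraries pooled its animals (6 for E16.5, then 3 for P1 and 3 for P5).

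Cxcr4 is the receptor through which the chemokine Cxcl12 keeps newborn cortical interneurons in their tangential streams, and its loss from a cell accompanies the switch to invasion of the cortical plate. Ackr3 is the second receptor of Cxcl12 and regulates how much ligand and receptor remain at the cell surface. Igfbpl1 encodes a secreted protein of the insulin-like growth factor binding protein family that is abundant in newborn neurons of several lineages. Nos1 marks somatostatin long-range projection (LRP) neurons and Neurod6 marks excitatory neurons, and cells with either were kept out.

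Since each stage was 1 library, cells are not replicates and no test, standard error or p-value was made from them. Levels are UMIs summed over the cells of a class, per 1000000 UMIs of that class (CPM). Ratios are log2 of the level in the Igfbpl1+ Cxcr4+ cells over that in the comparison cells, each with 1 CPM added, and the 95% intervals are exact and cover counting error only. The intervals of ratios are without the added CPM. At low counts a ratio can therefore lie near the end of its interval that is closer to no difference. A difference between stages cannot be told apart from one between libraries. The median UMI total was 5768.5 in the Igfbpl1+ Cxcr4+ cells and 6038 in the comparison cells at E16.5, and 3739 and 3919 at P1. The median mitochondrial share was 3.77% and 4.46% at E16.5, and 6.36% and 6.29% at P1, while ribosomal protein genes took 9.35% and 8.98% of UMIs at E16.5 and 7.12% and 6.68% at P1. Of the barcodes, 3 were shared between E16.5 and P1, 1 between E16.5 and P5 and 6 between P1 and P5.

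How common were the cells at each stage? They made up 20.7% of kept cells at E16.5, with an exact Clopper-Pearson 95% interval of 19.4 to 22.0%. The share was 4.08% (3.34 to 4.93%) in the P1 library and 0.0336% (0.00085 to 0.187%) in the P5 library. The P5 library held a single cell, with 1 UMI of each gene, below the 3 cells at which a share is distinguished from 0 here (0.101% of cells). Cells with an Igfbpl1 UMI were 52.0%, 25.5% and 2.79% of the 3 libraries in order of age, and cells with a Cxcr4 UMI were 32.3%, 20.2% and 1.58%. Igfbpl1 and Cxcr4 were thus both found in fewer cells at each later library. After every cell was thinned to 2000 UMIs, which left out 8.53%, 26.9% and 18.0% of kept cells as too shallow, the share with both was 7.75% at E16.5, 1.64% at P1 and 0 of 2443 cells at P5, a count of 0 that allows up to 0.123% by the limit of 3 counts. The order of the libraries was the same at full and at equal depth.

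**Figure D1:**
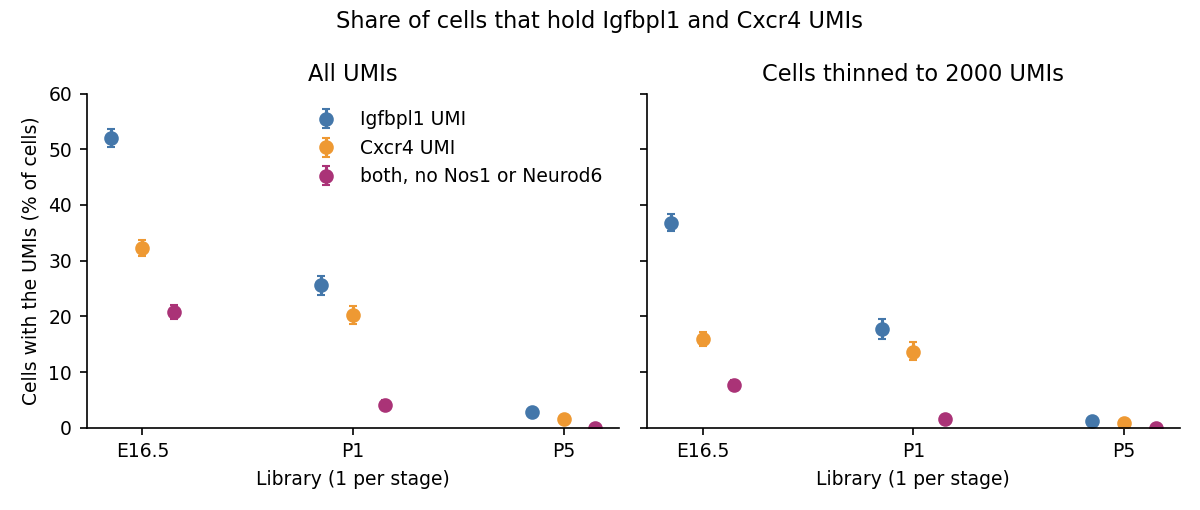
Share of cells (y axis, percent of cells) with a UMI of Igfbpl1, of Cxcr4, or of both without Nos1 and Neurod6, in the E16.5, P1 and P5 libraries (x axis), from all UMIs (left) and from cells thinned to 2000 UMIs (right). Points are shares and bars exact 95% intervals (counting error only). On the left, the share with both is 20.7%, 4.08% and 0.0336% in order of age.

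Among kept cells, a Cxcr4 UMI was held more often with an Igfbpl1 UMI than without at E16.5, but not at P1. The rule used both genes, so these shares describe the choice and are not a finding. At E16.5 a Cxcr4 UMI was held by 40.1% of the 2054 cells with Igfbpl1 and by 23.8% of the 1898 cells without it. At P1 the shares were 18.3% of 639 cells and 20.9% of 1862 cells, with overlapping intervals (15.4 to 21.5% and 19.1 to 22.8%). At 2000 UMIs per cell they were 21.0% and 13.0% at E16.5, and 10.8% and 14.3% at P1, where the intervals again overlapped. As a check on free RNA, cells with 2 or more Neurod6 UMIs were taken as an excitatory type that should lack Cxcr4. They held a Cxcr4 UMI in 3 of 42 cells at E16.5 and 3 of 30 at P1, at median depths of 12345 and 6632 UMIs, against 32.6% and 20.5% of the cells with 0 Neurod6 UMIs. Thinned to 2000 UMIs, 0 of 42 and 0 of 28 such cells held Cxcr4, which by the limit of 3 counts allows up to 7.14% and 10.7%. Igfbpl1 was no marker of inhibitory cells in these libraries, since 81.0% of the Neurod6 cells at E16.5 held it, and 66.7% did at 2000 UMIs.

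At the edge of the rule, 118 of the 818 cells at E16.5 (14.4%) and 44 of the 102 at P1 (43.1%) held exactly 1 UMI of each gene, while 282 and 13 held at least 2 of each. The highest counts in 1 cell were 22 Igfbpl1 and 7 Cxcr4 UMIs at E16.5, and 5 and 4 at P1. Just outside the rule, 4 cells at E16.5 and 15 at P1 held both genes but also Nos1, and 4 and 2 held Neurod6. A further 50 cells at E16.5 and 50 at P1 met the gene rule but failed the filters on gene number or mitochondrial share. Among cells with 0 Nos1 and 0 Neurod6 UMIs, 1159 at E16.5 and 322 at P1 held only Igfbpl1, and 450 and 370 held only Cxcr4.

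The lineage of the cells was checked against markers. As a background share, 16.7% and 20.0% of the cells with 2 or more Neurod6 UMIs held an Lhx6 UMI at E16.5 and P1. Lhx6, which the rule for the Igfbpl1+ Cxcr4+ cells did not use, was found in 747 of 818 of them (91.3%) at E16.5 and in 83 of 102 (81.4%) at P1. Among all kept cells the Lhx6 shares were 84.0% and 78.6%. The interval of the P1 share in the Igfbpl1+ Cxcr4+ cells, 72.4 to 88.4%, held that of all kept cells. All 6 neuronal, 8 inhibitory and 6 MGE markers were present in both libraries, and at least 2 inhibitory markers were held by 98.8% of the cells at E16.5 and 94.1% at P1. All of these markers were present in the comparison cells too, of which 95.7% and 83.9% held at least 2 inhibitory ones. Of 10 excitatory and progenitor markers, 6 had a UMI in these cells at E16.5 and 2 at P1, against 6 and 7 in the comparison cells. Neurod1, Slc17a6, Eomes and Emx1 were at 0 UMIs in the Igfbpl1+ Cxcr4+ cells of both libraries. The summed level of the 10 excitatory and progenitor markers was 21.7 CPM at E16.5 and 69.2 CPM at P1, against 15.3 and 53.9 CPM in the comparison cells, and nearly all of it was Sla (100 and 31 UMIs). The microglial, endothelial, pericyte and blood lists each summed to at most 6.49 CPM in these cells and 8.27 CPM in the comparison cells. The 9 astrocyte and radial glia markers summed to 51.2 against 44.0 CPM at E16.5 and 60.6 against 42.9 CPM at P1, of which Slc1a2 made up 231 of 250 and 22 of 28 UMIs in these cells, and at least 1 was held by 22.5% of the cells in both libraries, against 22.8% and 15.3% of the comparison cells. The 6 oligodendrocyte markers summed to 10.7 against 23.9 CPM at E16.5 and 23.8 against 22.5 CPM at P1, and Mbp was the only one with a UMI in these cells. The part of these non-neuronal lists in the differences given here was not tested. Without cells that held any UMI of Neurod1, Neurod2, Eomes, Tbr1, Slc17a6 or Slc17a7, 120 genes were 2-fold higher and 746 lower at E16.5 and 364 and 1240 at P1, whereas the part of Sla was not tested. At least 1 of 6 markers of interneurons from the caudal ganglionic eminence (CGE) was held by 17.1% of the cells at E16.5 and 15.7% at P1, against 9.89% and 8.98% of the comparison cells. Their summed level was 47.1 against 27.8 CPM at E16.5, where Cck led with 135 UMIs, and 140.6 against 48.0 CPM at P1, where Adarb2 led. At least 2 of these markers were held by 5 cells at E16.5 and 2 at P1. Adarb2 had 15 UMIs in 5 cells at E16.5, 8 of them in 1 cell. At P1 Adarb2 had 27 UMIs in 3 cells, 16 of them in 1 cell, and Prox1 12 UMIs in 3 cells, and of both trios 2 cells lacked Lhx6. Markers of the Meis2-type inhibitory neurons (5 genes) were also higher, at 75.8 against 29.7 CPM at E16.5 and 86.5 against 42.7 CPM at P1. At least 1 of them was held by 24.7% against 10.9% of cells at E16.5 and by 25.5% against 16.3% at P1, and most of their UMIs were Tshz1 (287 and 37 UMIs). At least 2 of them were held by 14 cells at E16.5 and 1 at P1. Leaving out cells of both classes with any UMI of Adarb2, Prox1, Htr3a or Vip, an alternative chosen after seeing the data, gave 116 genes 2-fold higher and 730 lower at E16.5, 356 and 1272 at P1 and 24 and 240 in both libraries (120 and 746, 364 and 1243, and 23 and 251 over all cells), and moved Nfix at P1 from 2.63 to 2.02 and Nfib from 0.98 to -0.11. The part of the Meis2-type markers in the differences was not tested. Inhibitory neuron markers were thus found in nearly all of these cells and in most comparison cells, whereas migration itself was not measured. In the comparison class at E16.5, Nkx2-1, an early MGE and ventral telencephalic factor, was held by 56 cells (86 UMIs) and Lhx8 by 13 cells (34 UMIs), against 7 and 3 cells at P1.

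Over all genes, more were lower than higher in the Igfbpl1+ Cxcr4+ cells. At E16.5, 120 of 12782 genes with at least 10 UMIs over both classes were at least 2-fold higher (0.939%) and 746 at least 2-fold lower (5.84%). At P1, 364 of 12084 were higher (3.01%) and 1243 lower (10.3%). Of 11819 genes that could be compared in both libraries, 23 were higher in each (0.195%) and 251 lower in each (2.12%). The 23 were 26.1% of the genes higher at E16.5 and 6.71% of those higher at P1, and the 251 were 36.8% and 22.4% of those lower. The median ratio over all genes was -0.04 in both libraries. With 102 cells, P1 folds rested on fewer UMIs than those at E16.5. With an interval that also excludes 0, an alternative chosen after seeing the data, the P1 counts were 183 higher and 319 lower. With at least 50 UMIs over both classes they were 115 and 509. The shares of 3.01% and 10.3% at P1 thus include genes with few UMIs. The gene lists set against these shares below were not matched to them by level.

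The genes highest in both libraries were led by Zbtb20, a zinc finger transcription factor of developing neurons. Its level was 297 CPM in the Igfbpl1+ Cxcr4+ cells and 52.7 CPM in the comparison cells at E16.5, and 1339 and 394 CPM at P1, giving log2 ratios of 2.47 (2.33 to 2.65) and 1.76 (1.63 to 1.90). It was thus higher in these cells in both libraries, and higher in both classes at P1 than at E16.5. At 2000 UMIs per cell, Zbtb20 was found in 31.9% of them against 8.4% of the comparison cells at E16.5, and in 79.3% against 39.7% at P1 (51.6% against 17.6% and 92.2% against 49.7% of the unthinned cells). The metallophosphoesterase gene Mpped2 followed, with 675 against 170.0 CPM at E16.5 and 746 against 255 CPM at P1. The homeodomain genes Cux2 and Cux1, known for upper cortical layers and also found in interneuron precursors, were higher by log2 ratios of 1.18 and 0.90 at E16.5 and 1.31 and 0.88 at P1. Maf, which promotes the somatostatin fate in MGE cells, stood at 873 against 475 CPM at E16.5 and 2831 against 1426 CPM at P1, so that its ratio was 0.88 (0.81 to 0.94) and 0.99 (0.90 to 1.07). Besides Ackr3, described further on, the remaining genes of this group were the zinc finger gene Tshz1 (also the leading Meis2-type marker above), the nuclear envelope gene Syne2 (linked to nuclear movement), the extracellular matrix genes Thbs1 and Vcan, the giant actin-binding gene Neb and the histone methyltransferase gene Ezh2, with ratios between 0.93 (Ezh2) and 1.73 (Tshz1) at E16.5 and between 0.85 (Ezh2) and 1.15 (Tshz1) at P1. Each of the 12 intervals lay above 0 in both libraries. The genes were chosen by these same ratios, so this adds no evidence. The P1 values depended on the cells kept. With over 1000 genes and under 5% mitochondrial UMIs, which left 22 cells, Mpped2 was at 1.25, Vcan at 0.92, Cux1 at 0.91 and Zbtb20 at 0.83. Cux2 was at 0.66, Thbs1 at 0.36, Ackr3 at 0.27, Ezh2 at 0.24, Syne2 at 0.14 and Maf at 0.10. Neb (-0.19) and Tshz1 (-1.26) were below 0.

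**Figure D2:**
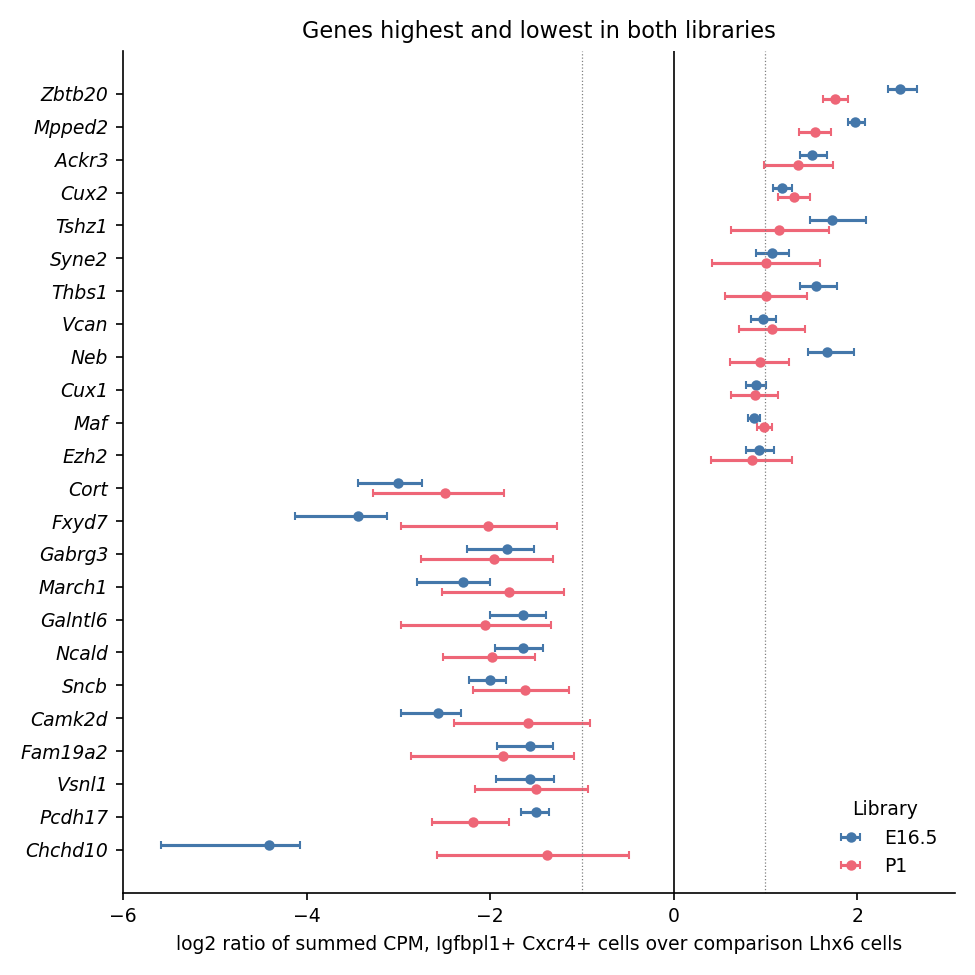
log2 ratio of summed CPM in Igfbpl1+ Cxcr4+ cells over comparison Lhx6 cells (x axis) for the 12 genes with the highest and the 12 with the lowest ratio in both libraries (y axis), at E16.5 and P1. Bars are exact 95% intervals (counting error only), the solid line is no difference and the dotted lines are the 2-fold change. Zbtb20 is highest at 2.47 and 1.76, and Chchd10 lowest at E16.5, at -4.41.

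The genes lowest in both libraries included neuropeptide, ion transport and calcium signalling genes. Cort, the neuropeptide cortistatin, was at 15.4 against 130.2 CPM at E16.5 and at 38.9 against 223 CPM at P1, log2 ratios of -3.00 (-3.44 to -2.74) and -2.49 (-3.28 to -1.85), and its level in the comparison cells was 576 CPM at P5. Fxyd7, a brain regulator of the sodium pump, was lower by -3.44 and -2.02, and its comparison level was 92.2, 117 and 495 CPM over the 3 libraries. Chchd10, a mitochondrial protein gene, had the lowest ratio of the group at E16.5, -4.41 (-5.59 to -4.07), from 3.28 against 90.0 CPM, and -1.39 (-2.58 to -0.48) at P1. Sncb (beta-synuclein), Camk2d (a calcium and calmodulin-dependent kinase), Vsnl1 and Ncald (neuronal calcium sensors), Gabrg3 (a GABA-A receptor subunit) and Pcdh17 (a protocadherin) had ratios from -2.57 (Camk2d) to -1.50 (Pcdh17) at E16.5 and from -2.19 (Pcdh17) to -1.50 (Vsnl1) at P1. March1, Galntl6 and Fam19a2 completed the group, at -2.30, -1.65 and -1.57 at E16.5 and -1.80, -2.06 and -1.87 at P1. For 11 of these 12 genes, all but Fam19a2, the level in the comparison cells was higher in the P5 than in the E16.5 library. These genes were chosen as higher in the comparison cells than in the Igfbpl1+ Cxcr4+ cells. The share of all genes with such a difference between libraries was not measured, so the count is a description only. Under the stricter cell filter at P1, ratios of the 12 ran from -5.43 (Chchd10) to -0.53 (Fam19a2), and those of Fam19a2, March1, Pcdh17, Sncb and Vsnl1 were short of 2-fold.

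Of the transcription factors of newborn inhibitory neurons, 3 of 20 measured were at least 2-fold higher at E16.5 and none lower, with 16 above 0 and a median ratio of 0.48. At P1, 4 of 19 were higher and none lower, with a median of 0.52, but under the stricter cell filter 1 was higher and 1 lower there, with a median of 0.27. The background was 0.939% of genes higher at E16.5 and 3.01% at P1. Sox11, a SoxC factor of the earliest neuronal programme, was at 5020.5 CPM in the Igfbpl1+ Cxcr4+ cells and 2285 CPM in the comparison cells at E16.5, and at 2371 and 1560.2 CPM at P1, ratios of 1.14 (1.11 to 1.16) and 0.60 (0.51 to 0.70). Its level in the comparison cells at P5 was 387 CPM. Sox4, the related SoxC gene, had ratios of 0.64 and 0.36 (-0.08 at P1 with at least 2 UMIs of each gene), and the stem cell factor Sox2 ratios of 0.91 and 0.85 (0.16 at P1 under the stricter filter). The distal-less genes that drive the inhibitory fate differed among themselves, with Dlx1 at 0.96 and 0.52, Dlx2 at 0.51 and 0.60, Dlx5 at 0.15 and -0.01, and Dlx6 at -0.76 and -0.97. Insm1, a factor of cells leaving the cycle, had the highest ratio of the list at E16.5, 1.73 (1.33 to 2.78), from 12.3 against 3.01 CPM, and was 1.69 (0.70 to 2.85) at P1, where the stricter filter gave 0.47. Sox1 and Pou3f2 were at 1.66 (1.33 to 2.01) and 1.23 (0.69 to 1.78) at P1, against -0.19 and -0.59 at E16.5. Both P1 ratios were under 2-fold with the stricter filter (0.86 and 0.69), and that of Pou3f2 was 0.14 against comparison cells whatever their Nos1 and Neurod6. The study also counted Sox1, Sox2, Zeb1 and Pou3f2 among transcription factors enriched in LRP neurons, and Pou3f2 is among the LRP markers given further on. The list is thus not specific to newborn cells, and the part of LRP genes in its P1 values was not tested. Cell cycle and progenitor genes were low in both classes. The 22 genes summed to 89.3 against 71.4 CPM at E16.5 and 97.3 against 89.9 CPM at P1. Of the 14 measured at E16.5, 1 was at least 2-fold higher and 1 lower, and of the 11 at P1, 2 were higher and 3 lower, where 5.84% and 10.3% of all genes were lower.

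**Figure D3:**
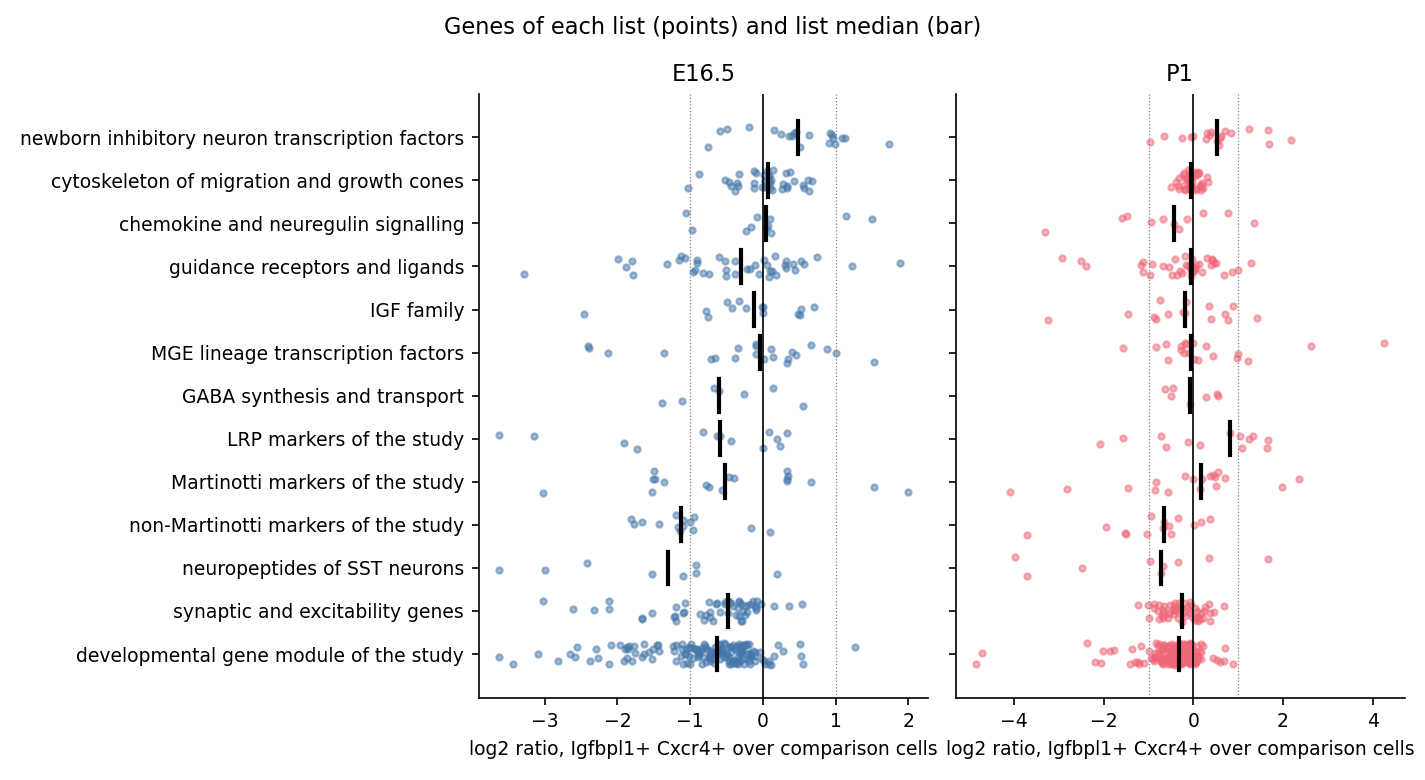
log2 ratio of Igfbpl1+ Cxcr4+ cells over comparison cells (x axis) for every measured gene (points) of 13 gene lists (y axis), at E16.5 (left) and P1 (right), with the list median as a bar. Dotted lines are the 2-fold change. The newborn transcription factors lie to the right in both libraries (medians 0.48 and 0.52), and the developmental gene module to the left (medians -0.63 and -0.31).

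Among the chemokine and neuregulin genes, Ackr3 was higher in both libraries, at 214 against 74.5 CPM at E16.5 and 162 against 62.6 CPM at P1, ratios of 1.51 (1.37 to 1.67) and 1.36 (0.99 to 1.74). It was found in 35.3% of the thinned Igfbpl1+ Cxcr4+ cells against 14.4% of the comparison cells at E16.5 and in 31.0% against 13.7% at P1 (65.6% against 33.7% and 51.0% against 23.1% unthinned), and its comparison level at P5 was 5.39 CPM. The ligand Cxcl12 had 0 UMIs in these cells in both libraries. Of the 11 measured genes, 2 were higher and 1 lower at E16.5, and 1 was higher and 3 lower at P1, where 0.939% and 3.01% of all genes were higher and 5.84% and 10.3% lower. Under the stricter cell filter, 0 were higher and 1 lower at P1, and the median ratio there turned from -0.43 to 0.28. The other gene higher at E16.5 was Cnr1, the cannabinoid receptor, at 1.14 (0.98 to 1.33), and was at -0.43 (-0.78 to -0.11) at P1, where the stricter cell filter turned it to 0.79. Erbb4, the neuregulin receptor of migrating interneurons, was at -0.17 at E16.5 and -0.96 (-1.28 to -0.66) at P1, and Gfra2, a neurturin receptor, at -0.97 and -1.49 (-0.73 at P1 under the stricter filter).

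The 250 bases before the start of the Cxcr4 and Ackr3 genes are shown since Ackr3, the other receptor of Cxcl12, was higher in cells that the rule selected on Cxcr4. They are RefSeq sequence of build GRCm38.p6, read 5′ to 3′ on the strand of the gene: chr1:128592300-128592549, minus strand, for Cxcr4 (a protein-coding gene at chr1:128588199-128592293 in GENCODE M21), and chr1:90203730-90203979, plus strand, for Ackr3 (chr1:90203980-90216751). Capitals mark TATAAA, the core of the TATA box.
Cxcr4: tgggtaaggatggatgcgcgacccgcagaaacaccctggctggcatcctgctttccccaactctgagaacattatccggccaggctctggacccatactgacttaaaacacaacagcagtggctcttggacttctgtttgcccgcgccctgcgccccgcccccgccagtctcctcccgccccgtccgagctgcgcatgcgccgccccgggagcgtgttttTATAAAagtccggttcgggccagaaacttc
Ackr3: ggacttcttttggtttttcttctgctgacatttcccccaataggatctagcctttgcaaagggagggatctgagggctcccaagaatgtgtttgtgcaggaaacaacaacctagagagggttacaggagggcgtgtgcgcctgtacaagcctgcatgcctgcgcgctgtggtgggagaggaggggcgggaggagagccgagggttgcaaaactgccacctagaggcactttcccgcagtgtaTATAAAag
The letters began 30 bases before the start in Cxcr4 and 8 bases before it in Ackr3. TATAAA was present on the strand of the gene in 7.59% of 32851 such sequences of 250 bases, and on either strand in 12.4%, and the reverse form overlapped the marked letters in Cxcr4. A match of letters is a description and not a binding site. The 250 bases before the RefSeq start of Sox11 (chr12:27342719-27342968, minus strand) held none. In GENCODE M21 the gene lies at chr12:27334264-27342574, so its start there differs. Igfbpl1 (chr4:45809468-45826923, minus strand) is named only.

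Guidance genes (receptors and ligands that steer cells and axons) differed in both directions. Of 42 measured at E16.5, 2 were at least 2-fold higher and 9 lower (median -0.30), and of 40 at P1, 1 was higher and 6 lower (median -0.06). The P1 counts were close to the 3.01% and 10.3% over all genes, while at E16.5 those were 0.939% and 5.84%. Epha4, an ephrin receptor, was the one higher in both libraries, at 20.7 against 4.89 CPM at E16.5 and 58.4 against 23.3 CPM at P1. Its P1 ratio of 1.29 was 0.44 against comparison cells whatever their Nos1 and Neurod6 and 0.80 under the stricter cell filter, short of 2-fold in both. The semaphorin receptor genes Nrp1 and Nrp2 lay on opposite sides at E16.5. Nrp1 was at 1.23 (0.88 to 1.75), but at 0.74 with the mean of CPM over cells, and Nrp2 was at -1.79 (-2.22 to -1.50). At P1 the intervals of both receptor genes held 0. Plxna4, a plexin that acts with them, was lower in both, at -1.13 and -1.12 (-0.40 at P1 under the stricter cell filter). The ephrin receptor Epha5, with 6321 UMIs in these cells at E16.5, was at 0.13 and 0.30.

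Cytoskeletal genes of migration and growth cones were measured at high levels and differed little. None of 40 was 2-fold higher in either library, 1 was lower at E16.5 (Rac3, a small GTPase, -1.03) and none at P1, where 0.939% and 3.01% of all genes were higher and 5.84% and 10.3% lower. Within the 2-fold range, the tubulin genes Tuba1a and Tubb2b were at 0.68 and 0.63 at E16.5, and at -0.03 and 0.22 at P1. Doublecortin (Dcx), the usual label of migrating neurons, was at 1083 against 863 CPM at E16.5 (0.33, 0.28 to 0.38) and at 1172 against 1248 CPM at P1 (-0.09, -0.22 to 0.04). Gap43, a growth cone protein of extending axons, was at -0.88 at E16.5 and -0.05 at P1. In the IGF family, 0 of 14 genes were higher and 1 lower at E16.5 (Igfbp5, -2.47, -3.38 to -2.08), and 1 of 15 was higher and 2 lower at P1, where the lower counts were near those shares. The receptor Igf1r was at 0.48 at E16.5 and -0.24 at P1, and the binding protein genes Igfbp2 and Igfbp4 were at 0.52 and -0.76 at E16.5 and at 0.77 and -0.88 at P1.

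Which mature features were lower? Of 55 synaptic and excitability genes, 15 were at least 2-fold lower at E16.5 and none higher, 52 lay below 0, and the median ratio was -0.48, against 5.84% of all genes lower. With the mean of CPM over cells in place of summed UMIs, 9 were lower at E16.5. At P1, 2 of 54 were lower and none higher, with 37 below 0 and a median of -0.25. The count of lower genes was below the 10.3% of all genes, a share not matched by level. Syt1, the calcium sensor of vesicle release, was at 502 against 839.7 CPM at E16.5 and at 839 against 1327 CPM at P1, and its comparison level at P5 was 2539 CPM. Cplx1, a complexin of the release machinery, was at -1.08 and -1.01, but at -0.69 at E16.5 without the 2% of cells with the most UMIs and at -0.35 at P1 under the stricter cell filter. Gria3, an AMPA receptor subunit, was at -2.32 (-2.58 to -2.13) at E16.5 but at 0.15 (-0.18 to 0.47) at P1. Not all such genes were lower: the AMPA receptor subunit Gria1 was at 0.54 and 0.24 and the neurexin gene Nrxn3 at 0.36 and 0.25. Of 7 genes of GABA synthesis and transport, none was higher and 2 were lower at E16.5 (median -0.60, against 5.84% of all genes lower), and none passed 2-fold at P1 (median -0.09). With the mean of CPM over cells, 0 were lower at E16.5. The 2 genes for the GABA-synthesising enzymes lay on opposite sides of 0 in both libraries, with Gad1 at -0.67 and -0.46 and Gad2 at 0.56 and 0.54. Slc12a5, the chloride exporter that rises as neurons mature, was at -1.12 at E16.5 and -0.09 at P1. Without the 2% of cells with the most UMIs, its E16.5 ratio was -0.94, short of 2-fold.

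The neuropeptide and calcium-binding genes of somatostatin neurons were mostly low at E16.5, where 5 of 8 were at least 2-fold lower and none higher (median -1.31), while at P1, 3 of 9 were lower and 1 higher (median -0.71), against 5.84% and 10.3% of all genes lower and 3.01% higher at P1. With 5 CPM added, 3 were 2-fold lower at E16.5 and the median was -0.91. Sst itself was at 1739.7 CPM in the Igfbpl1+ Cxcr4+ cells and 3287 CPM in the comparison cells at E16.5, and at 1813 and 1417 CPM at P1, ratios of -0.92 (-0.95 to -0.88) and 0.35 (0.25 to 0.46). Its level in the Igfbpl1+ Cxcr4+ cells thus differed little between the 2 libraries, while that of the comparison cells was lower at P1. An Sst UMI was found in 65.2% of the thinned Igfbpl1+ Cxcr4+ cells against 63.0% of the comparison cells at E16.5, and in 71.3% against 57.3% at P1 (77.1% against 73.1% and 76.5% against 69.3% unthinned). Npy, neuropeptide Y, was at 1363 against 1191 CPM at E16.5 and at 2496 against 782 CPM at P1 (1.67, 1.58 to 1.77). Against Lhx6 cells whatever their Nos1 and Neurod6 UMIs, the P1 ratio of Npy was -0.60, and it was 0.70 under the stricter cell filter. Calb1, calbindin, was at -2.43 and -0.97, and Tac1, the substance P precursor, at -1.10 (-1.59 to -0.75) and -3.72 (-7.05 to -2.14), the latter from 2 UMIs. Crhbp, a binding protein of corticotropin-releasing hormone, was at -3.63 and -0.71.

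**Figure D4:**
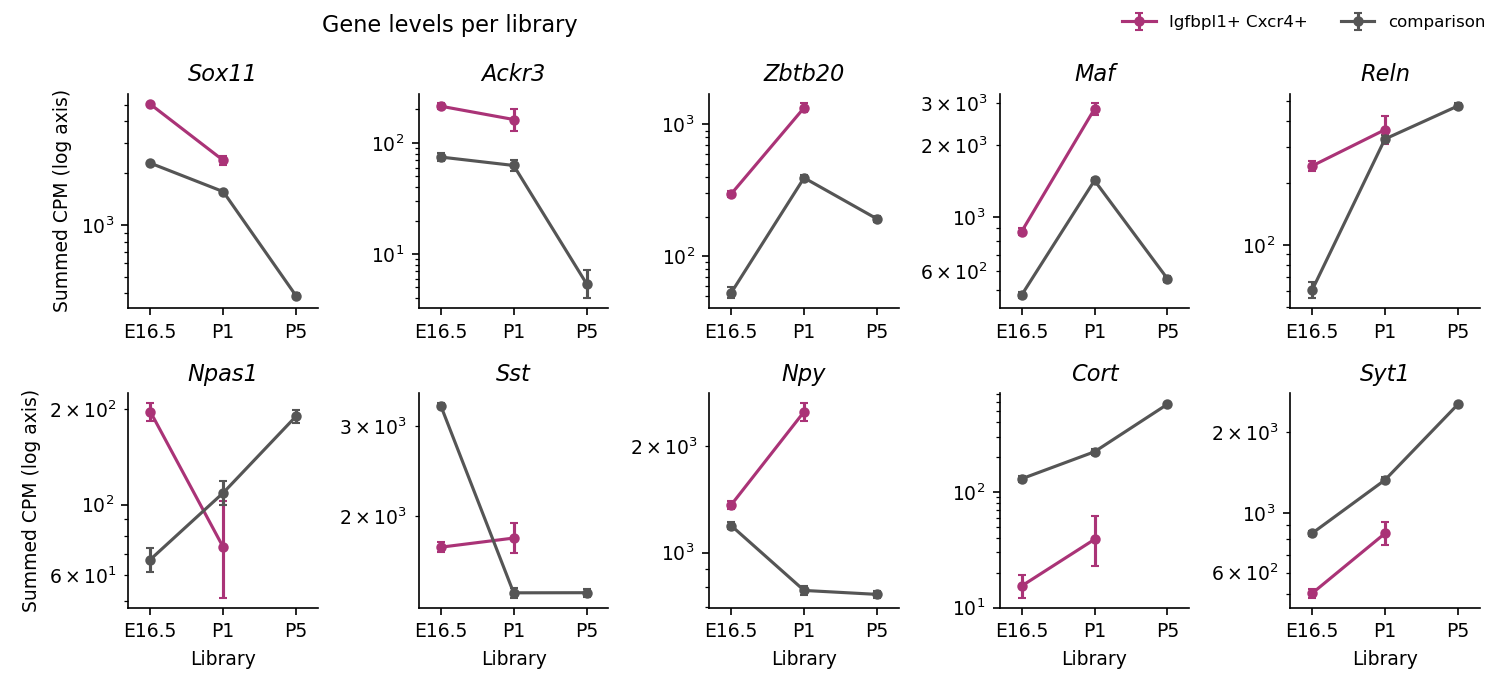
Summed level (y axis, CPM, log axis) of 10 genes in Igfbpl1+ Cxcr4+ cells (E16.5 and P1) and in comparison Lhx6 cells (E16.5, P1 and P5), by library (x axis). Points are levels, bars exact 95% Poisson intervals (counting error only), and lines join libraries of 1 class. Sox11, Ackr3, Zbtb20 and Maf are higher and Cort and Syt1 lower in the Igfbpl1+ Cxcr4+ cells in both libraries, while Sst and Npas1 change sides. At P1, Npas1 is at 0.61 under the stricter cell filter and Sst at -0.06 against comparison cells whatever their Nos1 and Neurod6, so that they then stay on their E16.5 side. Under the stricter cell filter at P1, Zbtb20 is at 0.83, Ackr3 at 0.27 and Maf at 0.10, all short of 2-fold, while Cort is at -3.47.

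Of the lineage transcription factors, mostly of the MGE, 2 of 22 were higher and 4 lower at E16.5 (0.939% and 5.84% of all genes), and 3 of 20 higher and 1 lower at P1 (3.01% and 10.3% of all genes). Sox6, a core factor of the lineage, was close to the comparison cells, at -0.09 and -0.10. Satb1, which acts in the maturation of somatostatin cells, was at 0.33 at E16.5 and -0.83 (-1.06 to -0.62) at P1. Under the stricter cell filter its P1 ratio was -0.05. Npas1, which the study also used as a marker of Martinotti cells, was at 196 against 67.3 CPM at E16.5 (1.53, 1.39 to 1.70) and at 73.5 against 109 CPM at P1 (-0.56, -1.11 to -0.07). Nkx2-1, Tshz2 and Etv1 were lower at E16.5 (-2.40, -2.13 and -1.36), and without cells that held Nkx2-1 or Lhx8, an alternative chosen after seeing the data, 123 genes were higher and 732 lower at E16.5. Of this list, 2 were then lower at E16.5. The higher ones at P1 were Nfix (2.63, 2.03 to 3.45), Nfia (1.21, -0.94 to 3.46, from 3 UMIs) and Prox1 (4.26), a CGE marker, from the 3 cells described above.

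The marker lists of somatostatin cell types that the study used to name its clusters came from adult cells of other work and from known markers. Of 14 markers of non-Martinotti cells (interneurons without the layer 1 axon of Martinotti cells), none was higher and 9 lower at E16.5 (median -1.12), and none higher and 5 lower at P1 (median -0.67), where 5.84% and 10.3% of all genes were lower. Gabrg3 was lower in both, as given above, as were Tac1 and Cntn5, a contactin adhesion gene (-1.43, and -1.51 with an interval of -3.94 to -0.05 from 3 UMIs at P1). Of 18 Martinotti markers, 2 were higher and 6 lower at E16.5 (median -0.52), and 2 higher and 3 lower at P1 (median 0.17), against the same shares of all genes and 0.939% and 3.01% higher. The one with the highest ratio at E16.5 was Reln, the secreted glycoprotein reelin, at 242 against 60.1 CPM (1.99, 1.85 to 2.17), and it was at 363 against 327 CPM at P1 (0.15, -0.09 to 0.38). At 2000 UMIs, Reln was found in 29.5% of the Igfbpl1+ Cxcr4+ cells against 8.9% of the comparison cells at E16.5, and in 33.3% against 25.8% at P1 (50.2% against 22.9% and 45.1% against 36.4% unthinned). Within the Igfbpl1+ Cxcr4+ cells at E16.5, Reln was held by 71.9% of the cells with an Npas1 UMI and by 32.6% of those without, a description that shares cell depth between both genes. The same held in the comparison cells at E16.5 (53.1% and 16.6%), and at P1 in the Igfbpl1+ Cxcr4+ cells (80.0% and 36.6%) and the comparison cells (78.5% and 26.1%). At P1 the higher Martinotti markers were Olfm3 (2.35, 1.90 to 2.89), an olfactomedin family gene, and Cbln4 (1.99, 1.12 to 3.07), a cerebellin that organises synapses.

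Of 13 LRP markers measured (without Nos1, which the rule used), none was higher and 4 lower at E16.5 (median -0.59), but 6 were higher and 2 lower at P1 (median 0.82). Over all genes, 0.939% were higher and 5.84% lower at E16.5, and 3.01% and 10.3% at P1. The 6 included Npy, Pou3f2, Sfrp1 (a secreted Wnt modulator, 1.03) and Col25a1 (a membrane collagen, 1.33, and 0.72 under the stricter cell filter), while Chodl, a marker of the adult cells, had 1 UMI in each library and was at -3.14 (-10.88 to -3.04) and -2.08 (-7.84 to 0.02). Against comparison cells whatever their Nos1 and Neurod6, which bring LRP neurons into that class, 0 of the 13 were higher at P1 and the median was -0.63. It was -0.81 with the 13 cells that held at least 2 UMIs of each gene. The developmental gene module, which the study chose on these samples and which is therefore no independent evidence, had 1 of 156 genes higher and 47 lower at E16.5 (median -0.63), and 0 of 158 higher and 16 lower at P1 (median -0.31), with 144 and 137 genes below 0. At P1 the count of lower genes was close to the 10.3% over all genes, against 5.84% at E16.5. Its summed level was 19931 against 29035 CPM at E16.5 and 45068 against 53289.6 CPM at P1, so the Igfbpl1+ Cxcr4+ cells at P1 lay above the comparison cells at E16.5. In the comparison cells it took a median of 8.30% of a cell's UMIs at P5, against 4.69% at P1. Of the 12 markers of stressed cells, none passed 2-fold in either library.

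Of 15 stress and immediate early genes at E16.5, 4 were at least 2-fold lower and none higher, and at P1, 2 of 13 were lower (none under the stricter cell filter), against 5.84% and 10.3% of all genes. The summed level of the list at E16.5 was 3245 against 3242 CPM while its median ratio was -0.66, and Dusp1, a phosphatase gene of the early response, was at 0.74. The 4 lower genes at E16.5 were Fos (44.7 against 143 CPM), Fosb, Junb and Egr1, with ratios of -1.66, -1.81, -1.48 and -1.71. A Fos UMI was held by 7.2% of the thinned Igfbpl1+ Cxcr4+ cells and by 20.4% of the comparison cells (16.4% and 40.6% unthinned). At P1, Fos was at 4.33 against 10.1 CPM (2 UMIs in the Igfbpl1+ Cxcr4+ cells). The part of this in the other differences was not tested.

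To see how each of the chosen genes related to these differences, Lhx6 cells with 0 Nos1 and 0 Neurod6 UMIs were divided by their UMIs into neither, Cxcr4 only, Igfbpl1 only, and both. At E16.5 the newborn transcription factors took a median of 0.65% of a cell's UMIs in the 1132 cells with neither, 0.962% in the 386 with Cxcr4 only, 0.998% in the 990 with Igfbpl1 only and 1.09% in the 747 with both. The developmental module took 2.67%, 2.06%, 2.25% and 1.86% in the same order. Cells with both thus lay at the end of each range at E16.5. The upper quartile of the newborn factors was 0.954% in cells with neither, and the lower quartile was 0.863% in cells with both. At P1 the newborn factors took 0.480%, 0.529%, 0.749% and 0.636% (947, 321, 243 and 83 cells), so that the cells with Igfbpl1 only were highest. The LRP markers at P1 took more of a cell's UMIs where Igfbpl1 was present, with medians of 0.058% and 0.063% in the classes without Igfbpl1 and 0.209% and 0.237% in those with it. Npy at P1 was likewise at 782, 927, 3415 and 2463 CPM over the 4 classes. Cort at E16.5 was at 130.2, 40.3, 39.4 and 15.7 CPM, close to equal in the classes with either gene alone. Ackr3 at E16.5 was at 74.5, 131, 143 and 217 CPM, highest in the cells with both.

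**Figure D5:**
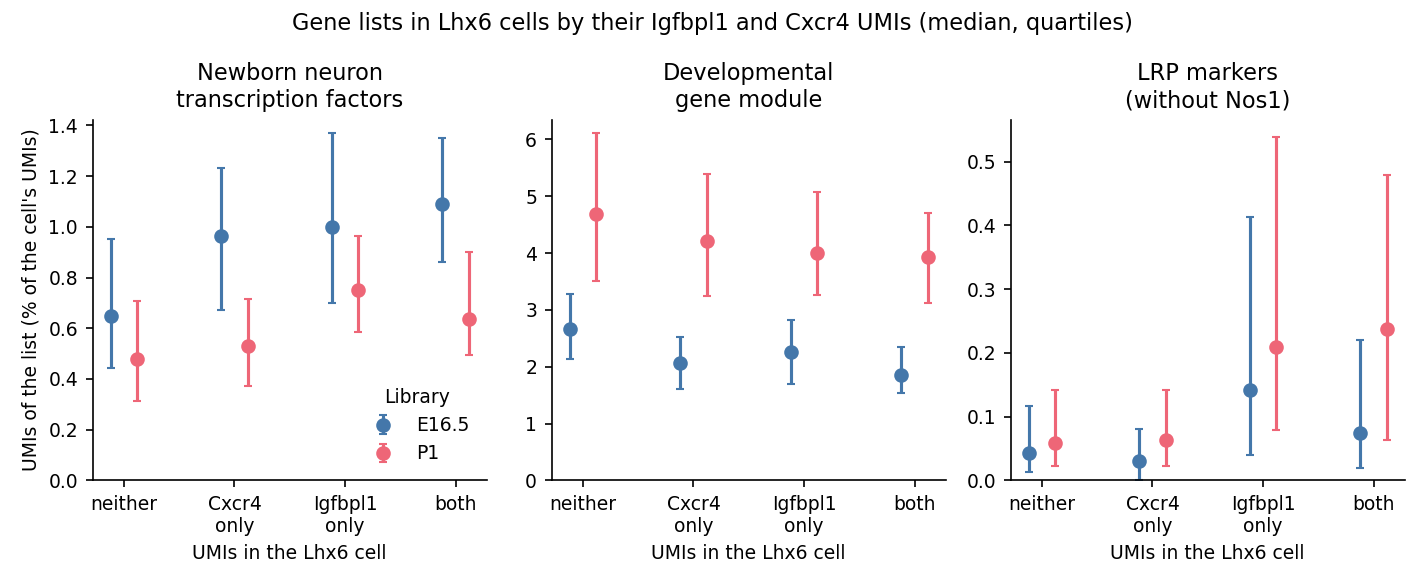
Share of a cell's UMIs (y axis, percent) taken by 3 gene lists in Lhx6 cells with UMIs of neither gene, Cxcr4 only, Igfbpl1 only or both (x axis), at E16.5 and P1. Points are medians over cells and bars the quartiles, which describe the spread between cells of 1 library. Cells with both have the highest median of newborn transcription factors at E16.5 (1.09%) and the lowest of the developmental module (1.86%).

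Levels within the class were also set against the number of UMIs that placed the cells in it. The rule used these UMIs, so this is a description. Median depth at E16.5 was 6055 UMIs with at least 2 of each gene and 5311 with exactly 1 of each, and its part was not tested. At E16.5 the 282 cells with at least 2 UMIs of each gene had higher levels than the 118 with exactly 1 of each for Mpped2 (792 against 286 CPM), Zbtb20 (317 against 175 CPM), Reln (296 against 120.0 CPM) and Npas1 (232 against 112 CPM), whereas Maf was at 882 against 954 CPM and Gad2 at 375 against 338 CPM. Syt1 was at 444 against 654 CPM. In the 71 cells without an Lhx6 UMI at E16.5, Zbtb20 was at 238 CPM against 301 CPM in the 747 with one, Maf at 783 against 879 CPM, Sox11 at 4606 against 5048 CPM and Npy at 659 against 1409.8 CPM. Meis2, by contrast, had 36 of its 38 UMIs in the 71 cells (117 against 0.437 CPM), so that its ratio to the comparison cells at E16.5 was 0.85 over all cells and -1.76 with an Lhx6 UMI required. Of the 5 cells with Adarb2 at E16.5, 3 lacked Lhx6, as did both cells with Prox1. At P1 the 19 cells without Lhx6 held 25 of the 27 Adarb2 UMIs.

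Between the 2 libraries, the Igfbpl1+ Cxcr4+ cells at P1 were higher than those at E16.5 in 153 of 156 genes of the developmental module (median log2 ratio 1.48) and in 53 of 54 synaptic genes (median 0.99), against 57.6% of the 11819 genes measured in both libraries (median 0.15). The study chose the module for its change over these stages, so that its direction here is no independent evidence. The comparison cells were higher at P1 in 156 and 47 of the same genes, with medians of 1.16 and 0.72, against 61.2% of all genes (median 0.17). In the newborn transcription factors the medians were -0.16 and -0.10. Stage and library cannot be told apart here, and whether the classes differed in this was not tested.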

How the data were processed

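Cells were sorted and sequenced as 1 10x library per stage, and the authors deposited a filtered matrix of UMI counts per gene and cell for each, which is not normalized. Per the file headers the matrices came from Cell Ranger 3.1.0 (E16.5 and P5) and 3.0.2 (P1), and the submitters' processing notes name the mouse build GRCm38. Of 12324 deposited cells, 9433 with over 700 genes and under 10% mitochondrial UMIs were kept. Doublets were not called, and the 2% of cells with the most UMIs were left out as an alternative.

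UMIs were summed per class and given as CPM, with 1 CPM added before log2. Genes with at least 10 UMIs over both classes were compared, without Igfbpl1, Cxcr4, Nos1, Neurod6 and Lhx6, and a gene counted as higher or lower past a fold of 2. Ratio intervals (without the added CPM) and share intervals are exact Clopper-Pearson and level intervals exact Poisson, at 95%. Since the libraries are not replicated, no test was made. The 24 genes named first are the 12 with the largest lowest ratio and the 12 with the smallest highest ratio over both libraries, among genes with at least 20 UMIs over both classes and 50 CPM in the higher class, leaving out mitochondrial and ribosomal protein genes. The others are from gene lists, named by role. The members and lists were chosen with earlier results of these data known. The computation (Python 3.11.15, scipy 1.17.1, pandas 2.3.3) was tested on simulated data. Alternatives changed the cell filter, UMIs required, depth, comparison cells, scaling, pseudocount and count filter, or left out cells with markers of other neurons. Promoter sequences were RefSeq entries, found for 16 of the 24 genes.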

Additional observations from a re-analysis of the deposited data

Results flagged for a closer look

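For 14 genes the ratio of Igfbpl1+ Cxcr4+ to comparison cells was past 2-fold in opposite directions in the E16.5 and P1 libraries, with intervals that excluded 0 in both, 0.118% of the 11819 genes measured in both libraries, and all 14 were lower at E16.5 and higher at P1. Without the condition on intervals there were 31 genes, of which 25 ran that way. Those among the lists were Cbln4 (-1.51 at E16.5 from 8 UMIs in the Igfbpl1+ Cxcr4+ cells, 1.99 at P1 from 14 UMIs) and Col25a1 (-1.91 from 62 UMIs, 1.33 from 27 UMIs). Against comparison cells whatever their Nos1 and Neurod6, Col25a1 was at 0.50 at P1, no longer past 2-fold. They drew attention since the library at one age lay on one side of no difference and the other library on the opposite side. With 1 library per stage, the difference was not tested.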

How the results depend on the processing

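No paired analysis was possible because each stage was 1 library and no test was made, and for the same reason no replicate could be left out. The share of Igfbpl1+ Cxcr4+ cells at E16.5 was 23.07% with over 1000 genes and under 5% mitochondrial UMIs, 7.14% with at least 2 UMIs of each gene, 7.75% at 2000 UMIs per cell and 22.5% among Lhx6 cells. At P1 it was 3.27%, 0.520% and 1.64% under the first 3 of these, and at P5 it was 0 with at least 2 UMIs of each and 0 at 2000 UMIs. With 5 CPM added, 39 genes were higher and 299 lower at E16.5, 123 and 438 at P1, and 11 and 94 in both libraries. With at least 50 UMIs over both classes, 71 were higher at E16.5, 115 higher and 509 lower at P1, and 11 and 148 in both. Without a filter on low counts, 896 were higher and 1873 lower at P1. With at least 2 UMIs of each gene, which left 13 cells at P1, 1263 were higher and 4042 lower at P1, and 35 and 569 in both libraries. The stricter cell filter left 4 higher and 110 lower in both libraries. With an interval that excludes 0, added after seeing the data, 183 were higher and 319 lower at P1, and 141 were lower in both. Of the values past 2-fold, the sign changed at P1 for Tshz1 (-1.26) and Gabrb1 (0.25) under the stricter cell filter, and for Npy (-0.60) and Sfrp1 (-0.14) against comparison cells whatever their Nos1 and Neurod6 UMIs. Over all 102 genes examined, 12 of 1609 values at E16.5 and 50 of 1583 at P1 changed sign, among them Cnr1 (0.79), Npas1 (0.61) and Etv1 (-1.37) under the stricter cell filter, Reln (-0.74) with at least 2 UMIs of each gene and Sst (-0.06) against the wider comparison cells, all at P1. Of the values past 2-fold at P1, 22 of the 38 that remained measurable under the stricter cell filter were then short of 2-fold, as were 7 of 44 against the wider comparison cells and 2 of 44 without the 2% of cells with the most UMIs; at E16.5 these were 5, 0 and 5 of 55. The cause was not tested. For the 24 genes named first, 334 of 384 values under the alternatives lay within the reported interval at E16.5 and 344 of 384 at P1, and 0 and 3 changed sign, the other 2 at P1 being Neb (-0.19, stricter cell filter) and Ezh2 (-0.42, at least 2 UMIs of each gene). The 102 cells at P1 limit the folds there, and P5 allowed no comparison.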
